A study of Mus musculus with 12 samples.

Results

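The cytosolic ribosomal protein genes encode the protein component of the machine that translates every messenger RNA, and their overlap with S9.6 peaks was counted gene by gene. The members were the protein-coding RefSeq genes of assembly GRCm38 whose symbols are Rpl or Rps followed by a digit, with Rplp0, Rplp1, Rplp2 and Rpsa. The Rps6k kinases, Rps19bp1, Rpl7l1 and pseudogenes were left out. This gave 87 of 21887 protein-coding genes. A member held a peak when its gene body, extended by 1 kb on both sides, overlapped one by at least 1 bp. Of the 87, 10 are paralogs or retrogene copies (Rpl3l, Rpl10l, Rpl22l1, Rpl32l, Rpl36al, Rpl37rt, Rpl39l, Rps23rg1, Rps27l and Rps27rt), and the other 77 comprise 46 genes of the large and 31 of the small subunit.

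A eukaryotic ribosome joins a small subunit, which decodes the messenger, with a large subunit, which forms peptide bonds. Each subunit is ribosomal RNA with one copy of nearly every ribosomal protein, so the genes are transcribed in step and very strongly in growing cells. Most of them are short, start at a pyrimidine tract that places their messengers under mTOR control (the 5′ terminal oligopyrimidine, or TOP, messengers), and many carry small nucleolar RNAs (snoRNAs) in their introns. An R-loop forms when nascent RNA pairs again with its template strand and displaces the other DNA strand, which links R-loops to transcription.

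The S9.6 antibody, which binds RNA-DNA hybrids, was used for DNA-RNA immunoprecipitation from 2 sources. One was HEPA1-6, a mouse hepatoma cell line labelled as WT and without treatment. The other was liver labelled as WT and without treatment, with C57/Bl6 mice (JAX) named in the labels' protocols. The age, sex and number of the animals are not given in the sources used here, and both sources carry the cell type label Hepatocyte. The labels list 12 libraries in 6 groups of 2: immunoprecipitate, immunoprecipitate with RNase H1 (an enzyme that degrades the RNA of a hybrid) and input, for each source. The values used were 1 peak list for each source, named in the files as a merged immunoprecipitate against an input. The input and RNase H1 libraries were not analysed here, so the share of peaks that RNase H1 removes was not measured.

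The HEPA1-6 list held 28717 peaks and the second list 14908. Marker genes were looked up in both before the members. Of 12 hepatocyte marker genes, 4 held a HEPA1-6 peak and 3 a peak of the second list, while 42.0% and 29.7% of all protein-coding genes did. Those 3 also held a HEPA1-6 peak: Alb, the serum albumin gene (scores 670 and 54), and the transcription factor genes Hnf4a (39 and 39) and Cebpa (29 and 29). All 6 cell cycle markers held a HEPA1-6 peak and 5 of 6 a peak of the second list. These counts do not settle which cells the second list came from, and many of its peak edges are identical to the base with those of HEPA1-6 (counted at the members further on). It is called liver-labelled, after its label, and its origin was not tested. Of the markers of other liver cells, 1 of 4 cholangiocyte, 2 of 5 Kupffer cell and leukocyte, 1 of 4 stellate, 0 of 4 endothelial and 0 of 2 red cell genes held a peak in each list. With 1 list for each source there is no replicate check and no test, and the depth behind the peaks is unknown.

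Starts and strands came from the RefSeq promoter table of GRCm38.p6, which matched 67 of the 87 members. To show what sequence the peaks cover at a start, the promoters are given for the 4 members with the highest-scoring HEPA1-6 peak over the start that also had a liver-labelled peak over it. The score is the authors' own value for each peak, a whole number of 10 or more whose scale is not given, so scores are ranked within a list and never compared between lists. Each stretch runs 5′ to 3′ on the strand of the gene from 250 bases before to 50 after the start. Capitals mark the longest run of pyrimidines (C or T) that lies between 20 bases before and 50 after the start. Rpl13 (chr8:123102100-123102399, plus strand), Rpl38 (chr11:114668330-114668629, plus strand), Rps23 (chr13:90922872-90923171, plus strand) and Rps16 (chr7:28350439-28350738, plus strand) are shown.
Rpl13: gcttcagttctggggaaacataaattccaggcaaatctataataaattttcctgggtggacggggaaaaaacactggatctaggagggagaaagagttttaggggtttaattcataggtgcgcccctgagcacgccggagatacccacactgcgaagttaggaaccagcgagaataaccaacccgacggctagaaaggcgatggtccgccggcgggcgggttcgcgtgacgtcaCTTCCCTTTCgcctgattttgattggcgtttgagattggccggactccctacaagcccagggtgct
Rpl38: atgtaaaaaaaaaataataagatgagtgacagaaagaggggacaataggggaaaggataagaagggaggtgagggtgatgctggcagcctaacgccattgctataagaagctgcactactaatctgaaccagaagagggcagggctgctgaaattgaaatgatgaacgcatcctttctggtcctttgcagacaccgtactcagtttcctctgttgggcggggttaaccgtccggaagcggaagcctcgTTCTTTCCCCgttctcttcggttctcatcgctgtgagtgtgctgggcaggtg
Rps23: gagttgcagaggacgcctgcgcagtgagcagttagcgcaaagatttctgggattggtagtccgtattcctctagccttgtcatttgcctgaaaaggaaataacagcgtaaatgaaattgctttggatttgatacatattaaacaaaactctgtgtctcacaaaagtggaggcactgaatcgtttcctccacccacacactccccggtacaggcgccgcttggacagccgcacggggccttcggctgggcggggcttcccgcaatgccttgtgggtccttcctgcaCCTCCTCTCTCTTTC
Rps16: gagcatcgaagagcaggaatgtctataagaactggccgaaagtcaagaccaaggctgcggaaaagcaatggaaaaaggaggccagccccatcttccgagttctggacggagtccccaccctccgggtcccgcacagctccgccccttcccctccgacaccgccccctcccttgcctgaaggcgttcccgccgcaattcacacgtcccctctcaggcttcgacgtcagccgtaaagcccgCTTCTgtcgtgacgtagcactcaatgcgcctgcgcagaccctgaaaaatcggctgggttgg

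Beside them stand 2 members with no peak within 1 kb of the start in either list, Rpl10 (chrX:74270566-74270865, plus strand) and Rpl39 (chrX:37085173-37085472, minus strand).
Rpl10: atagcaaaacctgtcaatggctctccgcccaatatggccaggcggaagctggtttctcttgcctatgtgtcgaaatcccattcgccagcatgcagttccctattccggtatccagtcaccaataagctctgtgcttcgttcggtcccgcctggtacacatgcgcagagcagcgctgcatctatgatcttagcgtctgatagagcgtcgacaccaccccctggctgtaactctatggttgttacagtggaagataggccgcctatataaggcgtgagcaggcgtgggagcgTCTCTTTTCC
Rpl39: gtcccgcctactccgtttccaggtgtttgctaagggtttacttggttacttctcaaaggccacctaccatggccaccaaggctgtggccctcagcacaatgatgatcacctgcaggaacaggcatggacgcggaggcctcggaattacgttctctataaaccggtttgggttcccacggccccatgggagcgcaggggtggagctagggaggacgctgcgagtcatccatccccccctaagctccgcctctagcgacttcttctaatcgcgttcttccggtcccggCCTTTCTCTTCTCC

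Long pyrimidine runs were present in all printed windows but that of Rps16, whether or not a peak lay over them. The longest run is 10 bases in Rpl13, Rpl38 and Rpl10, 15 in Rps23, 14 in Rpl39 and 5 in Rps16. The median over all protein-coding genes in the table is 6. In Rps23, Rpl10 and Rpl39 the run reaches the last base of the window, so its full length may be greater. Over the 67 members with a promoter, a run of 8 or more was present in 49 (73.1%), against 24.8% of 17492 protein-coding genes in the table. A run of at least 5 pyrimidines that begins at the start base was present in 18 members (26.9%), against 3.81% of all genes.

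Hexamer and heptamer motifs were searched in the same windows on both strands, and none of the 5 patterns contains another. GGGCGG, the core of the GC box, was found in 56.7% of the members and 46.3% of all promoters. CCGGAAG, a form of the ETS factor motif, was found in 37.3% and 11.9%. ATGGCG, a core of the YY1 motif, was found in 28.4% and 11.2%. TATAAA was found in 11.9% and 13.3%, and CACGTG, the E-box bound by Myc, in 7.46% and 7.91%. The members' windows had a median of 21 CpG dinucleotides against 13 in all promoters, at a median GC content of 57.0% against 56.3%. GC skew over the bases after the start, (G - C)/(G + C), had a median of -0.06 in the members and 0.07 in all genes, so the members' first bases held slightly more C than G on the coding strand.

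Promoters were also set beside peaks on the start base itself. In HEPA1-6, 53 of the 67 starts lay under a peak, and 40 of these 53 had a pyrimidine run of 8 or more, as did 9 of the 14 not under a peak. Median GC content was 59.0% in the former and 54.2% in the latter. For the liver-labelled list the 39 starts under a peak had a median GC content of 59.3% and the 28 others 55.8%. The 7 paralogs and retrogenes with no peak in either list are among the 14 and among the 28. Their GC content ran from 34.7% (Rpl32l) to 64.7% (Rps27l), and the medians without them were not computed. All these values are descriptions over genes, and no test was made of them.

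Nearly all ribosomal protein genes held a peak. In HEPA1-6, 79 of 87 members did (90.8%), against 42.0% of all protein-coding genes. Liver-labelled peaks lay at 77 of 87 (88.5%), against 29.7%. Both lists held a peak at the same 77 members, against 27.8% of all protein-coding genes. Only Rpl10 and Rpl36a had a HEPA1-6 peak alone, a class of 14.2% among all genes, and no member had a liver-labelled peak alone (1.89%). The members are short, with a median length of 3175 bp against 17169 bp for all protein-coding genes. Among the 10756 genes within the members' length range (374 to 16779 bp, median 5587 bp), the shares were 35.2% for HEPA1-6 and 24.9% for the liver-labelled peaks.

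The members without a peak were mostly copies. Without the 10 paralogs and retrogenes, 76 of 77 members held a peak in HEPA1-6, and 74 of 77 held a liver-labelled one. The 1 and 3 exceptions are X-linked, and all 73 autosomal members of this set held a peak in both lists. Of the 10 copies, 7 had no peak in either list: Rpl3l, which is expressed in muscle, Rpl10l and Rpl39l, which are expressed in testis, Rps27l, a target of p53, and Rpl32l, Rps23rg1 and Rps27rt. The remaining 3 were Rpl22l1, Rpl36al and Rpl37rt. Rpl36al had a HEPA1-6 score of 36 and a liver-labelled score of 27, and Rpl37rt had 37 and 22. At both, the highest peak also touched another protein-coding gene. Rpl22l1, the paralog of Rpl22, scored 82 and 41, but both highest peaks lay beyond its transcript end, and no liver-labelled peak covered its body.

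**Figure D1:**
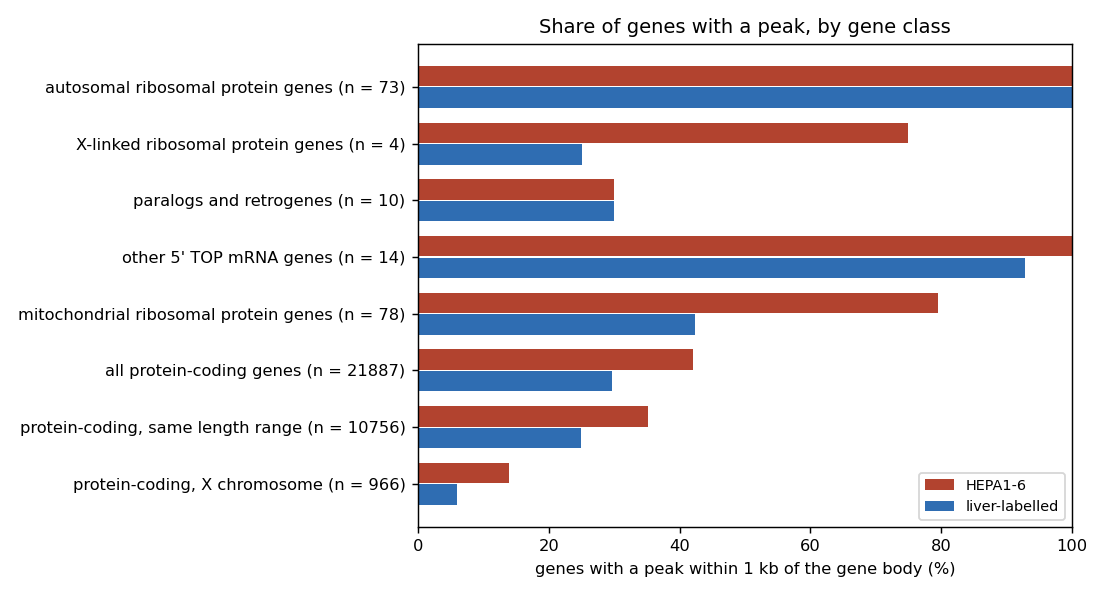
Percent of genes with a peak within 1 kb of the gene body (horizontal axis) for classes of genes (vertical axis), with HEPA1-6 in red and the liver-labelled list in blue. All 73 autosomal ribosomal protein genes held a peak in both lists, the 10 copies did so in 30.0% of cases, and all protein-coding genes in 42.0% and 29.7%.

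The 4 X-linked members had low scores or no peak. Rpl39, which lines the exit tunnel of the large subunit, had no peak. Rpl10, a late-joining protein of the large subunit, had 1 HEPA1-6 peak of score 46, which started 1570 bp after the start site, also touched Dnase1l1, and covered 32.3% of the gene body. Rpl36a, of the large subunit, had HEPA1-6 peaks of score 24 and 14, the latter beyond its transcript end and touching Gla. Rps4x, of the small subunit, had 3 HEPA1-6 peaks with scores of 26, 23 and 15, and the one of score 23 lay outside the gene body. Its 1 liver-labelled peak, of score 16 and 281 bp, also lay outside the gene body. Over all protein-coding genes, 13.9% on X held a HEPA1-6 peak and 43.3% elsewhere, and 5.9% and 30.8% held a liver-labelled peak. The part of the chromosome-wide difference in the values of these 4 genes was not tested.

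Near-identical copies of ribosomal protein genes are spread over the genome as processed pseudogenes. Of 310 such pseudogenes named in the table, 7 (2.26%) held a peak in HEPA1-6, and 5 (1.61%) held a liver-labelled one. Over all 9944 pseudogenes the shares were 3.49% and 1.96%. Reads that fit both a gene and its pseudogenes may have been handled in several ways, and how they were is not given in the sources used here.

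Peaks at the members ranked high in both lists. The highest peak of a member had a median score of 117 in HEPA1-6 (range 24 to 477, quartiles 72.5 and 152), against 34 over all protein-coding genes with a peak and 36 in the members' length range. The liver-labelled median was 58 (range 16 to 231, quartiles 38 and 85), against 28 and 30. Of the 79 members with a HEPA1-6 peak, 71 (89.9%) had one above the 90th percentile of scores in that list and 19 (24.1%) one above the 99th. Over all protein-coding genes with a peak these shares were 30.4% and 3.08%. In the liver-labelled list 47 of 77 members (61.0%) passed the 90th percentile and 8 (10.4%) the 99th, against 19.5% and 1.26%. Of the 100 highest-scoring HEPA1-6 peaks that touch a protein-coding gene, 13 touched a member, while members were touched by 0.352% of all such peaks. The corresponding liver-labelled values were 11 of 100 and 0.798%.

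**Figure D2:**
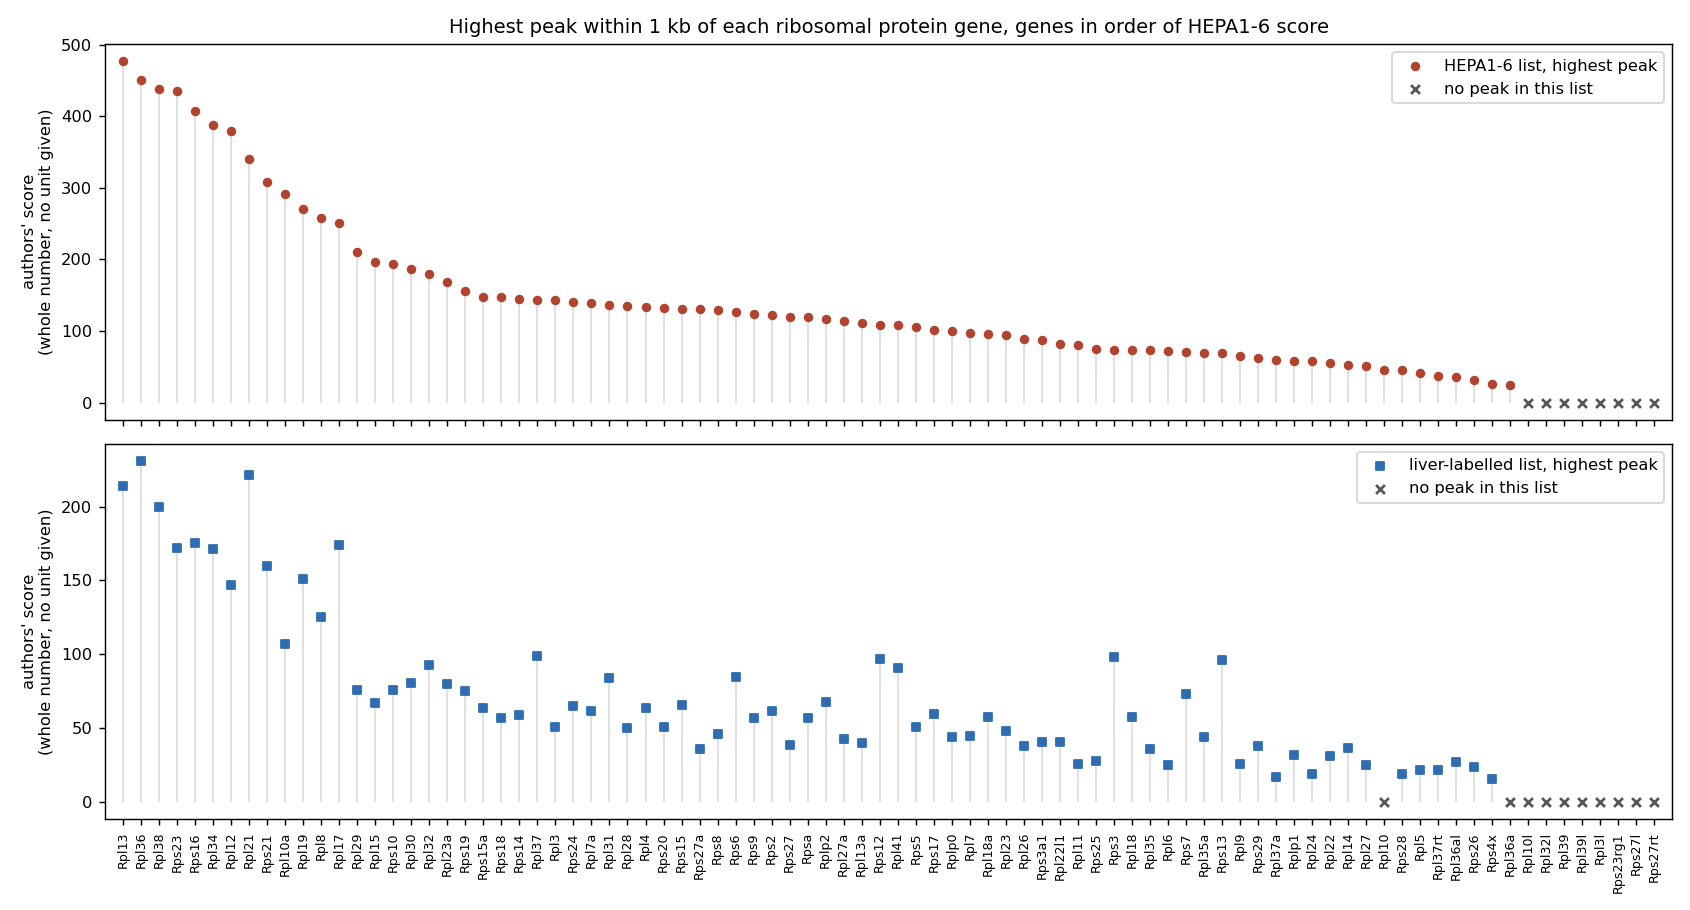
Score of the highest peak within 1 kb of each ribosomal protein gene shown (vertical axes, the authors' score with no unit given), HEPA1-6 above and liver-labelled below, with genes in order of HEPA1-6 score and crosses for genes with no peak in that list. Scores fall from 477 at Rpl13 to 24 at Rpl36a in HEPA1-6, and the same genes lead the lower panel, where Rpl36 has the highest score, 231.

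The leading genes were largely the same. The 10 highest in HEPA1-6 were Rpl13 (score 477), Rpl36 (450), Rpl38 (438), Rps23 (435), Rps16 (407), Rpl34 (388), Rpl12 (380), Rpl21 (340), Rps21 (308) and Rpl10a (291). Rpl38 is the gene mutated in the Tail-short mouse, and Rps23 sits at the decoding centre. The 10 highest in the liver-labelled list were Rpl36 (231), Rpl21 (221), Rpl13 (214), Rpl38 (200), Rps16 (175), Rpl17 (174), Rps23 (172), Rpl34 (171), Rps21 (160) and Rpl19 (151). Rpl12 and Rpl10a gave way to Rpl17, a protein near the exit tunnel, and to Rpl19, which helps bridge the subunits. Over the 77 members with a peak in both lists, Spearman's rho between the scores was 0.83, a description over genes whose peaks overlap. Scores did not follow gene length (rho 0.0 over 79 members for HEPA1-6 and -0.01 over 77 for the liver-labelled scores).

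**Figure D3:**
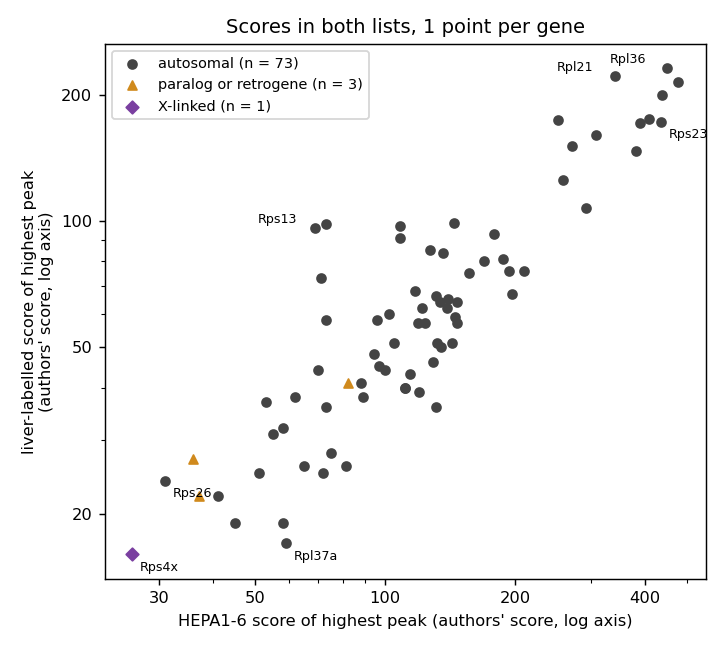
HEPA1-6 score (horizontal, log axis) against liver-labelled score (vertical, log axis) of the highest peak, 1 point for each of 77 genes with a peak in both lists. Points rise together (rho 0.83), with Rps4x lowest in both lists and Rps13 above the trend.

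The stalk proteins, which recruit the translation factors, differed among themselves. Rplp0, the base of the stalk, had a HEPA1-6 score of 100 and a liver-labelled score of 44. Rplp1 scored 58 and 32, below the members' lower quartiles of 72.5 and 38. Rplp2 scored 117 and 68, against the members' medians of 117 and 58. Rpsa, a small-subunit protein also described as a laminin receptor, scored 119 and 57. Rpl13a, known for its part in interferon-dependent silencing of messengers, scored 111 and 40.

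Rpl5 and Rpl11 carry the 5S ribosomal RNA and bind Mdm2. Rpl5 had scores of 41 and 22, and its single liver-labelled peak was 247 bp wide, the narrowest among the members' highest peaks. Rpl11 had 81 and 26. Rps26, which sits at the messenger exit, had the lowest score of the autosomal members outside the copies in HEPA1-6, 31, and scored 24 in the liver-labelled list. Rps6, the substrate of the S6 kinases, scored 127 and 85.

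Large- and small-subunit genes were close in counts and median scores and in HEPA1-6 differed at the top of the range, with no test made. Outside the copies, 45 of 46 large-subunit genes held a HEPA1-6 peak with a median score of 114, and all 31 small-subunit genes did with a median of 122. Liver-labelled peaks lay at 43 of 46 (median 58) and at 31 of 31 (median 59). In HEPA1-6, 15 of 45 large-subunit genes (33.3%) and 4 of 31 small-subunit genes (12.9%) passed the 99th percentile of scores, with upper quartiles of 197 and 142. The 90th percentile was passed by 93.3% and 90.3%. In the liver-labelled list, 6 of 43 (14.0%) and 2 of 31 (6.45%) passed the 99th percentile. There the order was reversed at the 90th, with 60.5% and 67.7%. Peaks were wider at large-subunit genes, with a median of 6430 bp against 4694 bp for HEPA1-6 and 4470 bp against 2862 bp for liver-labelled peaks. The median gene lengths were 3179 and 2944 bp. The highest HEPA1-6 peak also touched another protein-coding gene at 23 of 45 large-subunit and 10 of 31 small-subunit genes. The liver-labelled counts were 15 of 43 and 8 of 31, and the part of such neighbours in the widths was not tested. All 18 members on the list of genes mutated in Diamond-Blackfan anaemia, an inherited failure of red cell production, held a peak in both lists, as did all 73 autosomal members outside the copies, against 27.8% of all protein-coding genes. Their median scores were 77 and 41.5, below the members' medians.

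Genes that house snoRNAs were not marked out by their share with a peak. Of the 30 members with an annotated snoRNA gene inside, outside the copies, 29 held a peak in HEPA1-6, and 28 held a liver-labelled one, and of the 47 others 47 and 46 did. Median scores were 122 and 108 for HEPA1-6, and 63 and 57 for the other list. The members contain 59 snoRNA genes, of which 58 lay under a HEPA1-6 peak and 49 under a liver-labelled peak. Among the 461 snoRNA genes inside any protein-coding gene, these included, 31.5% and 19.3% did.

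Peaks at the members were wide enough to cover whole genes. The highest peak had a median width of 6108 bp in HEPA1-6 (range 690 to 17531). Over all protein-coding genes with a peak the median was 2151 bp, and in the members' length range 3153 bp. The liver-labelled median was 3423 bp (range 247 to 13064), against 1203 and 1731 bp. Of the members' gene-body bases, 76.7% lay under a HEPA1-6 peak and 57.2% under a liver-labelled peak. For protein-coding genes within the members' length range the shares were 17.6% and 7.98%. The whole body was under peaks in 51 of 87 members in HEPA1-6, against 2.42% of all protein-coding genes and 4.88% of those in the length range. Liver-labelled peaks did so in 27 of 87, against 0.905% and 1.84%. The genes in the length range are not matched to the members, with a median length of 5587 bp against 3175 bp. The part of length in these shares was not tested.

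The widest HEPA1-6 peaks lay at Rpl18 (17531 bp, touching 4 other protein-coding genes), at Rpl13a (13563 bp), at Rps18 (10883 bp) and at Rps3 (10722 bp). In the liver-labelled list they lay at Rpl13a (13064 bp), Rps21 (9287 bp), Rpl41 (9004 bp) and Rpl23a (8719 bp). The highest peak also touched another protein-coding gene at 35 of 79 members in HEPA1-6 (44.3%) and at 25 of 77 in the other list (32.5%). Over all genes with a peak the shares were 33.0% and 29.2%, and in the length range 48.1% and 42.0%. Counting only peaks that touch no other protein-coding gene left 48 members with a HEPA1-6 peak and 54 with a liver-labelled one, against 33.5% and 23.5% of all protein-coding genes counted so.

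Peaks lay near both ends of most members, and the highest peak reached past both more often in HEPA1-6 than in the liver-labelled list. Of the 67 members with a known start, 58 had a HEPA1-6 peak within 1 kb of any listed start. Among protein-coding genes with a start in the table, 25.9% did. Within 1 kb of the transcript end 58 members had one, against 23.8%. In the liver-labelled list 51 had one at the start (17.9% of all) and 49 at the end (11.8% of all). Both ends were reached in 57 members in HEPA1-6 (15.1% of all genes) and in 44 for the other list (6.49%). The ends of the members lie closer together, with a median gene length of 3175 bp against 17169 bp for all protein-coding genes. These shares were not computed within the members' length range, and the part of length in them was not tested. Among the 59 members with a strand and a HEPA1-6 peak, the highest peak began upstream of the start in 46, ended beyond the transcript end in 50 and covered both in 42. The median 5′ edge lay 754 bp before the start and the median 3′ edge 1549 bp past the end. Among 57 such members in the liver-labelled list, the counts were 32, 37 and 19, with edges at 298 bp before the start and 752 bp past the end. The same counts over all protein-coding genes were not made, so these extents have no background beside them. The share of members under a peak was 79.1% in HEPA1-6 and 58.2% in the other list at the start. It first reached its highest value 900 bp after the start, at 83.6% and 65.7%, and was the same at 1000 bp. At 5000 bp before the start the members' share was 10.4% and 4.48%, against 5.26% and 2.08% of all protein-coding genes.

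**Figure D4:**
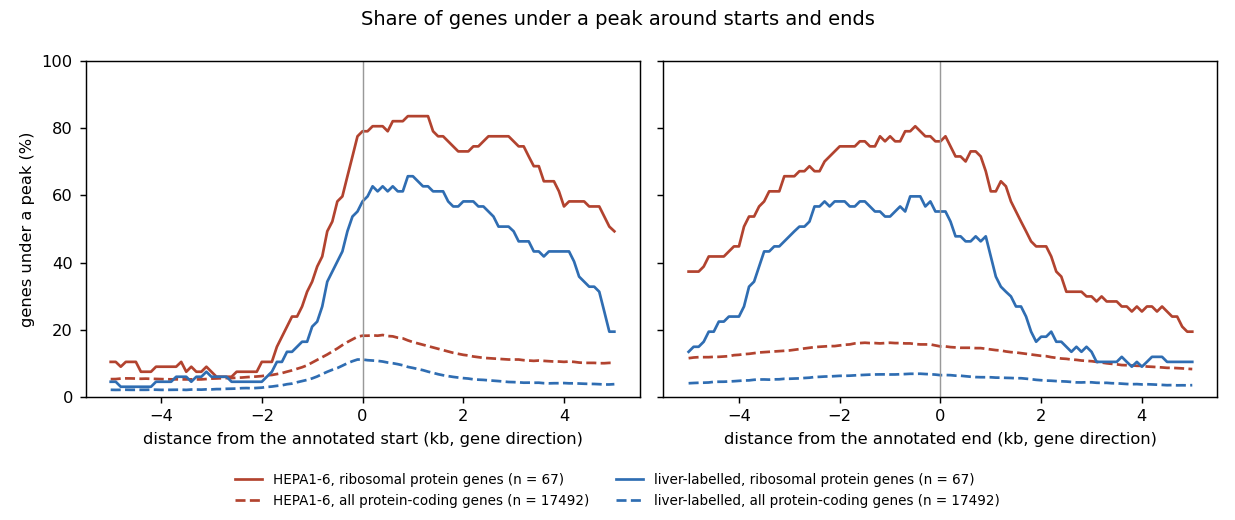
Percent of genes under a peak (vertical axis) by distance in kb from the annotated start (left) and end (right), in the direction of the gene, for 67 ribosomal protein genes (solid) and 17492 protein-coding genes (dashed) in HEPA1-6 (red) and the liver-labelled list (blue). The members' curves climb within 2 kb before the start to 83.6% and 65.7% at 900 bp after it, while at the start itself all genes reach 18.2% and 11.1%.

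Single genes showed how these extents differ. The Rpl13 peak began 532 bp before the start in both lists, and ended 3806 bp after it in HEPA1-6 and 2699 bp after it in the liver-labelled list. The Rps16 peaks began 1110 and 960 bp before the start and ended together 1651 bp after it, inside the gene. At Rpl38 both peaks ended 5382 bp after the start and began 3479 and 3310 bp before it. The Rps23 peak ran from 705 bp before to 2575 bp after the start in both lists.

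**Figure D5:**
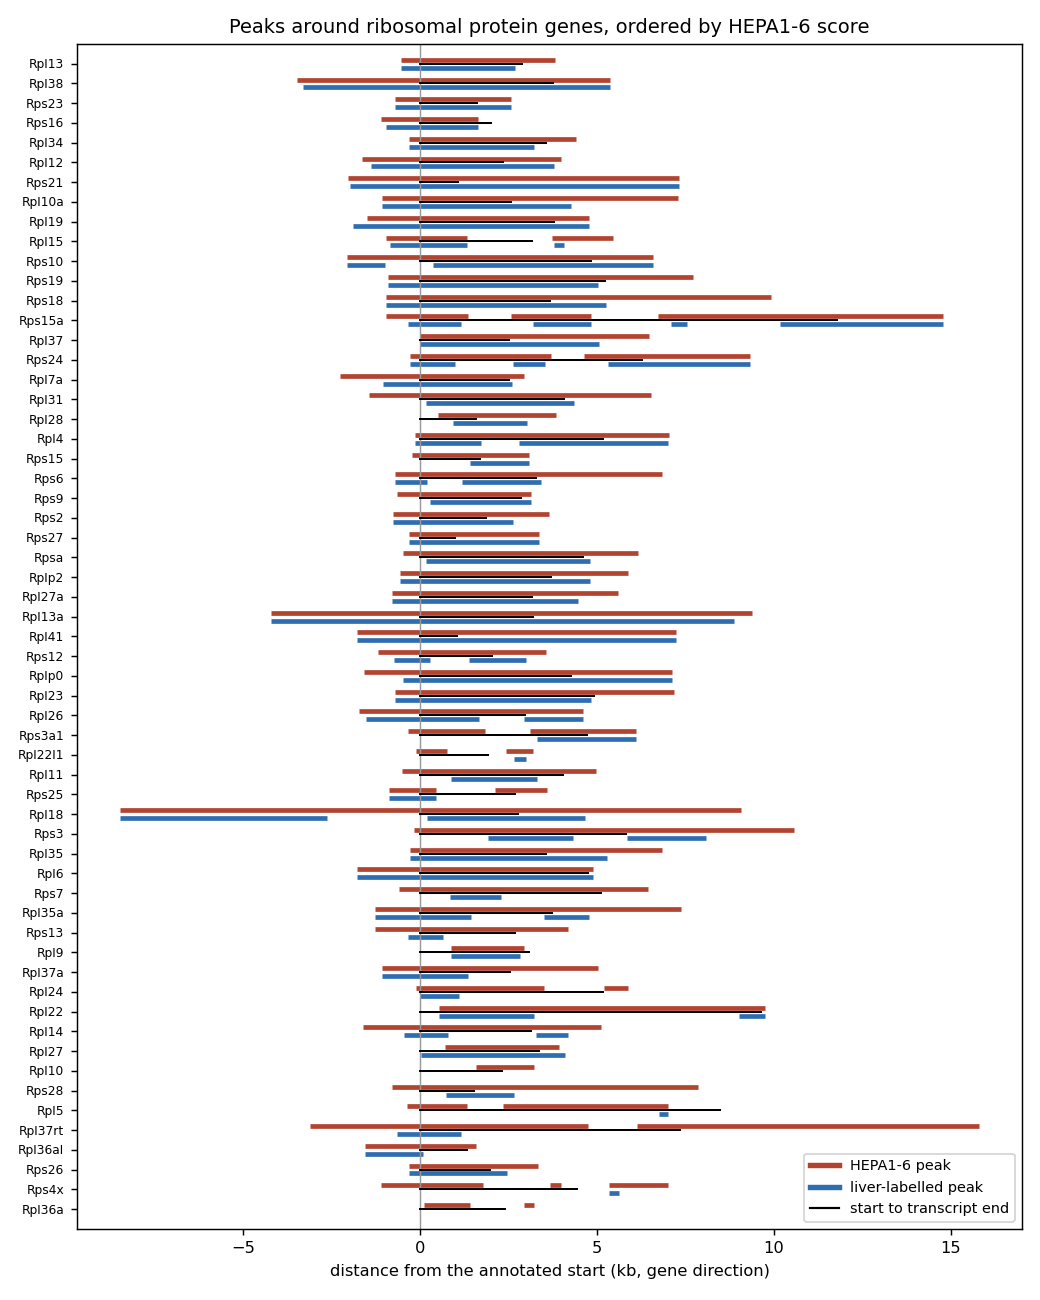
Peaks (thick bars, HEPA1-6 red, liver-labelled blue) around each ribosomal protein gene that has a table start and a HEPA1-6 peak (59 genes in rows, by falling HEPA1-6 score), against distance in kb from the start in the direction of the gene (horizontal axis), with the gene as a thin black line. Most HEPA1-6 bars cover the gene from before its start to past its end (42 of 59 by the highest peak), and most liver-labelled bars lie inside them or match them, with Rpl19 and Rpl27 among the exceptions.

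The lists often gave the same edges. At the members, 94 pairs of a HEPA1-6 and a liver-labelled peak overlapped, and in 91 of them (96.8%) the liver-labelled peak lay inside the HEPA1-6 peak, against 86.0% of all 11455 overlapping pairs. Both edges were identical to the base in 11 pairs (11.7%), against 6.29% of all pairs, and exactly 1 edge in 50 (53.2%), against 39.8%. Pairs with both edges identical lay at Rps23 (3281 bp, scores 435 and 172), Rpl8 (5228 bp, 258 and 125), Rpl29 (5305 bp, 210 and 76), Rpl30 (3402 bp, 187 and 81) and Rps14 (6326 bp, 145 and 59). The others lay at Rpl3, which shapes the peptidyl transferase centre, and at Rps27, Rpl41, Rps25, Rpl6 and Rps29. The method by which edges were set is not given in the sources used here.

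Each peak carries a strand given by the authors. In HEPA1-6 the highest peak had the strand of the gene in 41 of 59 members (69.5%), against 78.4% of protein-coding genes with a peak and a known strand. In the liver-labelled list it did in 44 of 57 (77.2%), also against 78.4%, so that neither share was above the background. The 8 highest-scoring HEPA1-6 peaks on the opposite strand were at Rpl12, Rpl10a, Rpl19, Rpl15, Rps18, Rpl37, Rpl7a and Rpl31. Of the 18 opposite-strand peaks in HEPA1-6, 13 also touched another protein-coding gene, against 14 of the 41 on the strand of the gene. The liver-labelled counts were 7 of 13, against 12 of 44. Rpsa, Rpl19, Rpl28 and Rpl9 had an opposite-strand peak in both lists that touched no other protein-coding gene. Of the 94 overlapping pairs, 18 (19.1%) had opposite strands in the 2 lists. This share was not computed over all overlapping pairs, so it is not read as a trait of the members. Among the 18 were the pairs at Rpl41, Rpl8 and Rps29, whose edges were identical.

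Other genes of the translation system showed which part of the pattern extends beyond the family. Fau, which encodes a fusion of a ubiquitin-like protein with a ribosomal protein, and Rack1, a scaffold on the small subunit, held a peak in both lists. Against 42.0% and 29.7% of all protein-coding genes, 14 of 14 other TOP messenger genes held a peak in HEPA1-6, and 13 held a liver-labelled one. These genes are longer than the members (median 11392.5 bp against 3175 bp), and 54.9% and 36.6% of their bases lay under a peak. Among them, the elongation factor genes Eef1a1 and Eef2 both scored 303 in HEPA1-6, and 134 and 117 in the liver-labelled list, and Eef1d had no liver-labelled peak. Of 9 chaperones and importers of ribosomal proteins (median length 11813 bp), 8 and 4 held a peak, with 23.4% and 6.58% of bases covered. Of 9 genes of upstream control (median length 28893 bp), 8 and 7 did, with 17.4% and 3.87% covered. The part of length in these counts was not tested. Among these, Myc scored 118 and 58 and Mtor, which at 109104 bp is far longer than any member, had no peak.

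The genes for mitochondrial ribosomal proteins serve as a contrast, since they encode the same kind of protein for a different ribosome. Of 78, 62 (79.5%) held a peak in HEPA1-6, and 33 (42.3%) held a liver-labelled one. Their highest peaks had median scores of 30.5 and 30. All their peaks together covered 16.8% and 4.97% of their gene-body bases. The cytosolic members had 117 and 58, and 76.7% and 57.2%. The mitochondrial set is longer, with a median gene length of 7690.5 bp, and the part of length in this contrast was not tested.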

How the data were processed

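Per the labels, S9.6 immunoprecipitates, RNase H1-treated immunoprecipitates and inputs were sequenced from HEPA1-6 cells and liver. Only the deposited peak lists, 1 for each source, were used. Each peak carries a score deposited by the authors, a whole number whose scale is not stated. Per the submitters' processing notes, the tools were CASAVA 1.8.2, cutadapt, Bowtie2, bedtools, SAMtools and MACS2, and the build was mm10. Their settings, the merged libraries and the way strands and edges were set are not given in the sources used here. Depth is unknown, so no interval for it is given.

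Genes came from a RefSeq table (GRCm38.p6) of boundaries without exons, and starts, strands and promoters from the RefSeq promoter table. Of several listed starts, the one nearest the gene boundary was used for edge distances, profiles and promoter windows. Counts of genes with a peak within 1 kb of the start took any listed start. Overlaps were counted with Python 3.11.15, pandas 2.3.3 and numpy 2.4.6, and intervals for labelling alternatives were 95% binomial ones (scipy 1.17.1). On simulated peaks all planted genes were found. No test was made, as 1 list for each source leaves no replicates.

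The members and lists were chosen with earlier results of these data known, and the pyrimidine-run window and the pseudogene count were added after seeing the data. The text names Rplp0, Rplp1, Rplp2, Rpsa and Rpl13a, the 10 highest-scoring and 5 widest members of each list, members with a peak in 1 list or none, those with identical peaks in both, and the 8 highest opposite-strand ones. Others (Rpl5, Rpl11, Rps26, Rps6 and single genes of the lists) were chosen after their values were seen. Results on a few single genes are not reported here.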

Additional observations from a re-analysis of the deposited data

How the results depend on the processing

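Over 17 results, 42 alternatives were run, and 33 stayed within the limits set (counts, as a share of the genes counted, within 1.5 times, shares and medians within a 95% binomial interval). Peaks given the strand of the gene left 42 of the 67 members with a table strand with a HEPA1-6 peak and 46 with a liver-labelled one. On either strand, 59 and 57 of these 67 held one. The background for this setting was not computed. Peaks touching no other protein-coding gene left 48 members in HEPA1-6, and with that setting, chosen after seeing the data, the background was 33.5% and 23.5%. The background in the members' length range was 35.2% and 24.9%. The share of bases was 72.3% and 53.7% with the 1 kb flank, and 75.8% and 55.4% with the higher-scoring 50% of peaks (76.7% and 57.2% in the main setting). The interval for this share treated each of 325167 bases as independent. It is therefore very narrow, and even small changes of this share fell outside it. Leaving out a replicate was not run, since each source has 1 merged list. No paired analysis was possible because replicate numbers in the labels have no list of their own. Depth, RNase H1 sensitivity and read handling at copies limit all counts and were not measured.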
